A study of Mus musculus with 12 samples.

Results

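The extracellular matrix and remodelling rows were 8 of the 55487 gene rows in the deposited count table, and all 8 were among the 13181 rows with enough counts to be tested. They were picked because earlier results of these data showed a stroma or cartilage signal over the 3 groups. Their differences between the groups therefore chose them and are described here without p-values. Where the fit over all rows called one of them, that is given as a count that supports nothing. The 5 rows Acan, Hapln3, Hmcn2, Htra3 and Cald1 carry the names of protein-coding genes. The other 3 rows, Gm48084, Apol7d and Gm48488, are non-coding in the annotation used here. They were read for the coding genes Lama2, Fn1 and Gas1, whose exons they overlap on the other strand. The matrix label fits the rows unevenly, since Cald1 encodes a protein of the cell's actin filaments and the names of the 3 non-coding rows carry no matrix role.

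RNA sequencing was done on nasal tissue, with the cell type labelled as nasal epithelium, from C57BL/6 male mice aged 6 weeks. There were 4 libraries of mice exposed to KDP20 and labelled day 10, 4 of mice exposed to KDP20 and labelled day 5, and 4 of mice given PBS as vehicle and labelled day 10. The series title names diesel particles as the exposure, and the sources used here give neither dose nor route. Total RNA was isolated with an RNeasy kit and made into libraries with a SMARTER mRNA-Seq kit. Day 10 against vehicle is matched on day, while exposure and day differ together in day 5 against vehicle. Whether libraries come from different animals is not said in the labels. The p-values therefore measure only the spread between these samples, which may be technical. The label numbers are 1, 2, 3 and 5 for day 10, 5, 6, 7 and 8 for day 5, and 2, 4, 5 and 6 for vehicle, and sets of 4 values below follow that order.

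Cartilage matrix is built of aggregates in which aggrecan, the large proteoglycan encoded by Acan, is held on hyaluronan by link proteins of the Hapln family. Connective tissue is rich in collagens, fibronectin and elastic fibres, basement membranes are sheets of laminin, type IV collagen and associated glycoproteins, and secreted proteases remodel both. In the nose, cartilage, bone, vessels and a fibroblast-rich lamina propria lie beneath the epithelium, so a nasal dissection can hold RNA of these cells as well. In such bulk samples, fewer cells of a type and less RNA per cell cannot be told apart.

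The stretches upstream of the genes are shown first because Acan and Hapln3 are neighbours on 1 chromosome with like patterns over the groups. Hmcn2, Htra3 and Cald1 lie on other chromosomes and went the other way between day 10 and day 5, but differed from each other in their values against vehicle. Each stretch is the 250 bases before a RefSeq transcript start in GRCm38.p6, read 5′ to 3′ along the gene's strand. They lie at chr7:79052976-79053225 (plus strand) for Acan, chr7:79131019-79131268 (minus strand) for Hapln3, chr2:31314082-31314331 (plus) for Hmcn2 and chr5:35679781-35680030 (minus) for Htra3. Cald1 had a pair of starts, with stretches at chr6:34598254-34598503 and chr6:34709194-34709443 (both plus). Gas1, at chr13:60177536-60177785 (minus), is shown because its stretch lies inside an exon of the opposite row Gm48488. Capitals mark matches on either strand to the TATA box (TATAAA), the CCAAT box (CCAAT), the GC box (GGGCGG) and the AP-1 site (TGANTCA).
Acan: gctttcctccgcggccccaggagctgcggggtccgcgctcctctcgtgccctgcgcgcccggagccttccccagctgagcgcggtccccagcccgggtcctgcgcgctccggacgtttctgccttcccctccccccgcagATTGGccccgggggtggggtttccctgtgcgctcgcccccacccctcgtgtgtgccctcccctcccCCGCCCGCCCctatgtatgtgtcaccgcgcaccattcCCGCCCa
Hapln3: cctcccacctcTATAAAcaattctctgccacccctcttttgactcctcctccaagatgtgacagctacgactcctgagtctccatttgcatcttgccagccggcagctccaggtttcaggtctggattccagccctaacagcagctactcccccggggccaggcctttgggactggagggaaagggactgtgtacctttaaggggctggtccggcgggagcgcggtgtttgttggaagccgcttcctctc
Hmcn2: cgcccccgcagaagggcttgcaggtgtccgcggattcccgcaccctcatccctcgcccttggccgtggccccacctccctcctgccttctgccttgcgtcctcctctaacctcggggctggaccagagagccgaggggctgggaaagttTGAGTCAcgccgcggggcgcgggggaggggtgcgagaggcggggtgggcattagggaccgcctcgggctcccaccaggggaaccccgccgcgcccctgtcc
Htra3: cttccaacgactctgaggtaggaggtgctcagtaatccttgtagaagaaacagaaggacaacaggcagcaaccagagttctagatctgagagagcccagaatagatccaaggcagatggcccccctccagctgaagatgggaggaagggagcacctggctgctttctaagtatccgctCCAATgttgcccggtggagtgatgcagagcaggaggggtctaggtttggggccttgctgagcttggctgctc
Cald1 first start: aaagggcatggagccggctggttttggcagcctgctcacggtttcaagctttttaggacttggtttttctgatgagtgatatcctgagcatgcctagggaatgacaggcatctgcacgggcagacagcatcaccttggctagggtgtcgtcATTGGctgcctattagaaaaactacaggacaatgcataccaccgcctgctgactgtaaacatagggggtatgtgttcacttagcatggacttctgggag
Cald1 second start: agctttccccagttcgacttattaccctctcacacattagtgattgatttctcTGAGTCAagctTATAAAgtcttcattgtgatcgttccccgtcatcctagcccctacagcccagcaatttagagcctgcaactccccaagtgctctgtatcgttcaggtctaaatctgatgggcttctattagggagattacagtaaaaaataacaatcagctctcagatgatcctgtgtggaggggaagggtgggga
Gas1: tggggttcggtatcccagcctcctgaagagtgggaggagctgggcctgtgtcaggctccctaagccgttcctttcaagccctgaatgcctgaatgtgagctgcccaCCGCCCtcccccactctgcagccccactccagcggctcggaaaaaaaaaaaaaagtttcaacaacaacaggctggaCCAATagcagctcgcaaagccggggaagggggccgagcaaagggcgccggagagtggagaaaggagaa

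Acan and Hapln3 shared none of the searched motifs upstream. Acan held 1 CCAAT box and 3 GC boxes, 2 of which overlap, and Hapln3 held 1 TATA box. Among the genes higher at day 10 than at day 5, Hmcn2 and the second start of Cald1 each held 1 AP-1 site, Htra3 and the first start of Cald1 each held 1 CCAAT box, and the second start of Cald1 held 1 TATA box. Gas1 held 1 CCAAT box and 1 GC box. Over all 32851 RefSeq stretches of this length, 12.4% held a TATA box, 33.8% a CCAAT box, 32.7% a GC box and 6.75% an AP-1 site. The xenobiotic response element (TNGCGTG, in 4.10% of stretches), which the aryl hydrocarbon receptor binds, and the CArG box of serum response factor (1.47%) had no match in the 7 stretches. GC content was 74.4% for Acan, 58.0% for Hapln3, 72.4% for Hmcn2, 54.8% for Htra3, 50.4% and 45.6% for the first and second start of Cald1, and 58.8% for Gas1, against a median of 52.4% over all stretches. A match describes the letters alone.

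The rows were placed in GENCODE M21, an annotation of mouse build GRCm38, which is the mm10 build named in the submitters' processing notes. Acan (ENSMUSG00000030607, chromosome 7, 79053483 to 79115099, plus strand) and Hapln3 (ENSMUSG00000030606, chromosome 7, 79115102 to 79131018, minus strand) lie tail to tail with 2 bases between them. Hmcn2 (ENSMUSG00000055632) spans 31314415 to 31460738 of chromosome 2, Htra3 (ENSMUSG00000029096) 35652023 to 35679782 of chromosome 5, and Cald1 (ENSMUSG00000029761) 34598500 to 34775473 of chromosome 6. None of these 5 genes has an exon that overlaps an exon on the other strand, although 3 opposite genes lie within the span of Cald1. Whether the counting used strand is not given in the sources used here, so the reads counted in a row can stem from another gene than its name says, and reads of overlapping genes on opposite strands cannot be told apart.

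The 3 non-coding rows differ in how they meet their coding partner. Gm48084 (ENSMUSG00000112751, chromosome 10, 26949740 to 26982036, plus strand) has 909 exonic bases, of which 631 (69.4%) overlap exons at the 3′ end of Lama2. Apol7d (ENSMUSG00000073652, chromosome 1, 71652837 to 71662843, plus strand) has 2091, of which 292 (14%) overlap exons at the 5′ end of Fn1. Gm48488 (ENSMUSG00000114433, chromosome 13, 60176682 to 60182862, plus strand) has 5345, of which 589 (11%) overlap the 5′ end of Gas1. Most exonic bases of Gm48488 are 1 exon of 5130 bases that also covers the Gas1 stretch printed above.

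**Figure D1:**
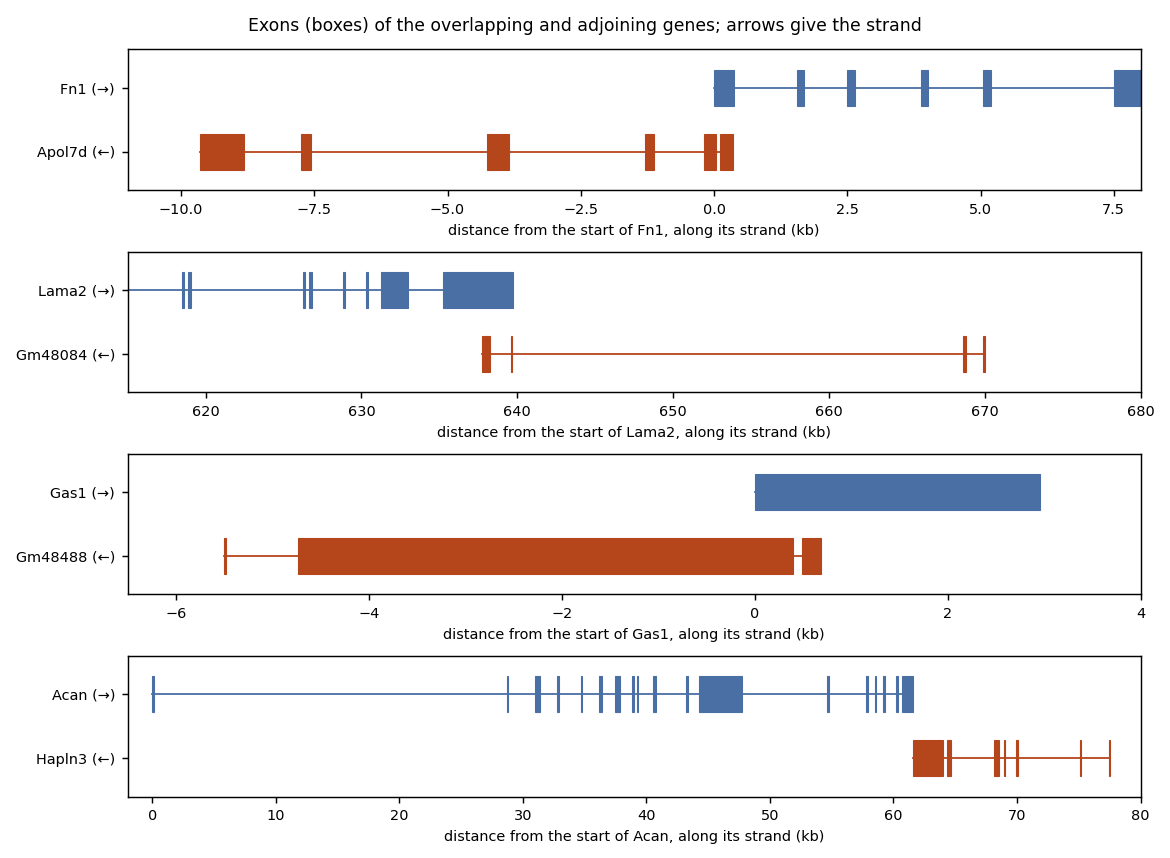
Exons (boxes) and strand (arrows) of Fn1 with Apol7d, Lama2 with Gm48084, Gas1 with Gm48488, and Acan with Hapln3, against distance in kb from the start of the first-named gene along its strand. Apol7d and Gm48488 overlap the 5′ end of their partner, Gm48084 overlaps the 3′ end of Lama2, and Acan and Hapln3 meet end to end with 2 bases between them.

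The libraries held 1658420 to 2036661 counts at day 10, 2028315 to 2425920 at day 5 and 1993550 to 3227138 in vehicle. Levels are given as CPM, counts scaled to a common library total after TMM scaling, an adjustment for libraries in which a few rows take a large share. The row CT010467.2 took 11.2%, 25.5%, 17.9% and 22.9% of counts in day 10 libraries 1, 2, 3 and 5, against 9.69% to 12.6% at day 5 and 7.25% to 10.1% in vehicle. Rows opposite skeletal muscle genes also set libraries apart, with summed levels of 674 CPM in day 10 library 1, 730.0 and 1010.0 CPM in day 5 libraries 6 and 8, and 115 CPM in vehicle library 4, against 12.4 to 30.6 CPM in the other 8. Values of the 8 rows that moved by over 1.5 times without day 10 libraries 2, 3 and 5 are given beside them.

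Acan and Hapln3 were high at day 5 and low at day 10. Acan had 1.03, 5.49, 3.14 and 2.285 CPM at day 10 (2, 8, 5 and 4 counts), 10.2, 9.62, 12.1 and 8.06 CPM at day 5 (24, 20, 26 and 16 counts) and 5.395, 7.83, 2.03 and 5.89 CPM in vehicle (13, 28, 4 and 13 counts). All 4 day 5 libraries lay above every day 10 and every vehicle library, and the day 10 and vehicle libraries overlapped. The log2 fold change of Acan was -1.78 (SE 0.49) for day 10 against day 5, 0.87 (SE 0.42) for day 5 against vehicle and -0.90 (SE 0.50) for day 10 against vehicle. For day 10 against vehicle it was -1.84 with the share of CT010467.2 in the model and -2.34 without day 10 libraries 2, 3 and 5 together, which left -3.22 for day 10 against day 5.

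Hapln3, which encodes a link protein that joins proteoglycans to hyaluronan, had 7 counts in day 10 library 1 and 0 in libraries 2, 3 and 5. It had 17, 11, 19 and 16 counts at day 5, and 7, 7, 5 and 0 counts in vehicle. As levels these were 3.60, 0, 0 and 0 CPM at day 10, 7.22, 5.29, 8.875 and 8.06 CPM at day 5, and 2.905, 1.96, 2.54 and 0 CPM in vehicle. Every day 5 library again lay above every library of the other groups. A count of 0 allows a level of up to 1.78, 1.81 and 1.47 CPM of the unscaled total in day 10 libraries 2, 3 and 5 and 1.42 CPM in vehicle library 6, taking 3 counts as the limit and counting error alone. The fitted log2 fold change was -2.80 (SE 0.79) for day 10 against day 5, 1.95 (SE 0.67) for day 5 against vehicle and -0.85 (SE 0.90) for day 10 against vehicle. The values for day 10 rest on its library 1, the only library of the 4 with any count. The log2 fold change for day 10 against vehicle turned positive with the share of CT010467.2 in the model (1.89) and without day 10 libraries 2, 3 and 5 together (0.94, and -1.02 for day 10 against day 5). Without day 10 library 1 it was -5.04 for day 10 against vehicle and -6.99 for day 10 against day 5, values that depend on the prior count of the fit because the other 3 libraries are at 0.

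Hmcn2 had the opposite order, with a low level at day 5. It encodes hemicentin 2, a large glycoprotein of the fibulin family found at basement membranes. Hmcn2 had 22.1, 50.1, 39.5 and 36.55 CPM at day 10, 8.49, 12.0, 16.35 and 14.6 CPM at day 5, and 39.8, 19.6, 38.6 and 34.4 CPM in vehicle. The 4 day 5 libraries lay below all others, and day 10 and vehicle overlapped over most of their range. On the log2 scale the fold change was 1.52 (SE 0.28) for day 10 against day 5, -1.35 (SE 0.28) for day 5 against vehicle and 0.17 (SE 0.26) for day 10 against vehicle. For day 10 against vehicle the value was -0.57 with the share of CT010467.2 in the model and -0.56 without day 10 libraries 2, 3 and 5 together. For day 10 against day 5 these values were 0.92 and 0.79.

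Htra3 encodes a secreted serine protease that cleaves proteoglycans. It had 13.9, 14.4, 21.3 and 17.1 CPM at day 10, 8.07, 7.21, 2.34 and 4.53 CPM at day 5, and 12.45, 8.95, 7.61 and 10.4 CPM in vehicle, from 5 to 34 counts per library. Day 10 lay above vehicle and above day 5 in all 4 libraries, while day 5 and vehicle overlapped. Its log2 fold change was 1.57 (SE 0.35) for day 10 against day 5, -0.82 (SE 0.36) for day 5 against vehicle and 0.75 (SE 0.33) for day 10 against vehicle, which was 0.49 without day 10 libraries 2, 3 and 5 together.

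Cald1 encodes caldesmon, which binds actin and calmodulin and regulates contraction in smooth muscle. It had 14.4, 45.3, 45.2 and 27.4 CPM at day 10, 11.04, 9.14, 9.81 and 12.1 CPM at day 5, and 15.35, 10.1, 9.135 and 20.4 CPM in vehicle. Day 10 libraries 2, 3 and 5 stood above all vehicle libraries, and library 1 lay within the vehicle range. Library 1 had both the smallest CT010467.2 share and the highest sum of rows opposite skeletal muscle genes (674 CPM) in its group. These traits of Cald1's lowest day 10 library cannot be told apart. The fitted log2 fold change was 1.63 (SE 0.33) for day 10 against day 5, -0.37 (SE 0.34) for day 5 against vehicle and 1.26 (SE 0.32) for day 10 against vehicle. With the share of CT010467.2 in the model, the value for day 10 against vehicle was 0.36, and without day 10 libraries 2, 3 and 5 together it was 0.08. For day 10 against day 5 these values were 0.91 and 0.45.

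**Figure D2:**
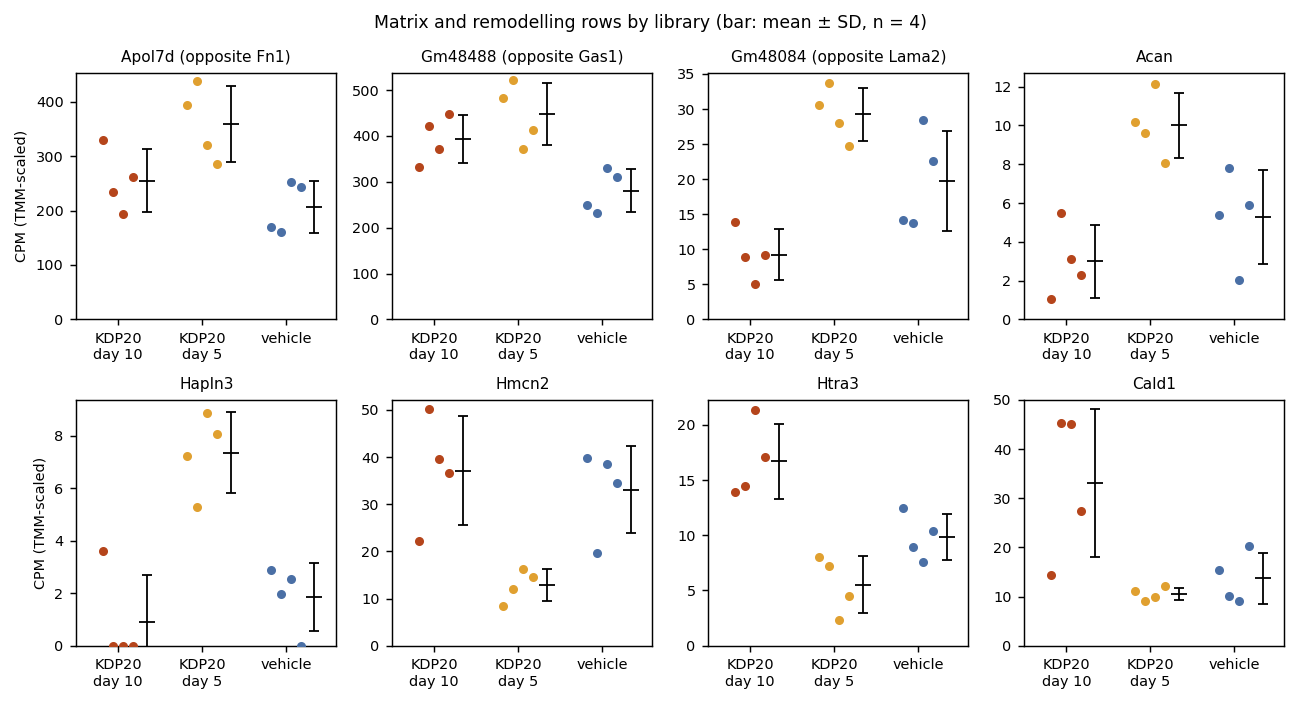
Level of each of the 8 rows in each library (points), in CPM on TMM-scaled totals, for KDP20 day 10, KDP20 day 5 and vehicle, with the mean and SD of 4 libraries beside them. Acan and Hapln3 are above the other groups in every day 5 library, Hmcn2 is below them in every day 5 library, and Htra3 is highest at day 10.

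Gm48084, opposite the laminin alpha 2 gene Lama2, was also lowest at day 10 and highest at day 5 on average. The laminin that holds this chain anchors muscle fibres and nerve to their basement membrane. Gm48084 had 13.9, 8.925, 5.02 and 9.14 CPM at day 10, 30.6, 33.7, 28.03 and 24.7 CPM at day 5, and 14.1, 13.7, 28.4 and 22.65 CPM in vehicle. All day 5 libraries lay above all day 10 libraries, and vehicle ran across the gap, with its library 4 just under day 10 library 1. On the log2 scale the fold change was -1.64 (SE 0.30) for day 10 against day 5, 0.59 (SE 0.27) for day 5 against vehicle and -1.05 (SE 0.31) for day 10 against vehicle, which was -0.47 without day 10 libraries 2, 3 and 5 together (-1.07 for day 10 against day 5). Lama2 itself held 14 counts over the 4 day 10 libraries, 21 at day 5 and 31 in vehicle, too few to be tested. The opposite row held 4.57, 12.0 and 6.10 times the counts of Lama2 at day 10, day 5 and in vehicle.

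Apol7d, opposite the fibronectin gene Fn1, was among the higher of the 8 rows. It had 330.3, 235, 193 and 262 CPM at day 10, 394, 438, 320.0 and 285 CPM at day 5, and 170.1, 161, 253 and 243 CPM in vehicle. Every day 5 library exceeded every vehicle library, and day 10 lay between and overlapped both. Its log2 fold change was -0.49 (SE 0.17) for day 10 against day 5, 0.80 (SE 0.17) for day 5 against vehicle and 0.31 (SE 0.17) for day 10 against vehicle. Without day 10 libraries 2, 3 and 5 together it was -0.12 for day 10 against day 5 and 0.68 for day 10 against vehicle.

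Fibronectin is the glycoprotein that links cells to collagen in connective tissue, and the own row of Fn1 held few counts. Fn1 had 18, 5, 11 and 3 counts at day 10, 15, 9, 7 and 18 at day 5, and 11, 22, 12 and 8 in vehicle, and the 3 groups overlapped. Its log2 fold change was 0.07 (SE 0.49, edgeR adjusted p 0.951) for day 10 against vehicle, 0.16 (SE 0.48, edgeR adjusted p 0.913) for day 5 against vehicle and -0.09 (SE 0.49, edgeR adjusted p 0.939) for day 10 against day 5. At this depth a change of Fn1 of the size seen in Apol7d was not detectable, since its SE is near 0.5 on the log2 scale. Apol7d held 47.3, 63.0 and 38.1 times the counts of Fn1 at day 10, day 5 and in vehicle.

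Gm48488, opposite Gas1, was above vehicle in both exposed groups. It had 331, 421.5, 371 and 448 CPM at day 10, 483, 522, 371 and 414 CPM at day 5, and 250.2, 233, 330.4 and 309.8 CPM in vehicle. Both exposed groups lay wholly above vehicle, although day 10 library 1 exceeded vehicle library 5 by less than 1 CPM, and the exposed groups overlapped each other. The fitted log2 fold change was 0.49 (SE 0.14) for day 10 against vehicle, 0.67 (SE 0.14) for day 5 against vehicle and -0.19 (SE 0.14) for day 10 against day 5. For day 10 against vehicle it was 0.05 with the share of CT010467.2 in the model and 0.24 without day 10 libraries 2, 3 and 5 together. For day 10 against day 5 these values were -0.54 and -0.43.

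Gas1 encodes a membrane-anchored co-receptor of hedgehog signalling, and the fold changes of its own row were close to those of Gm48488. Gas1 had 49, 46, 24 and 48 counts at day 10, 92, 45, 47 and 43 at day 5, and 32, 72, 31 and 45 in vehicle. Scaled to CPM it averaged 24.8 ± 7.02 at day 10, 26.1 ± 8.66 at day 5 and 17.4 ± 3.47 in vehicle (SD, n = 4), every day 5 library lay above every vehicle library, and the other groups overlapped. Its log2 fold change was 0.50 (SE 0.27, edgeR adjusted p 0.256) for day 10 against vehicle, 0.58 (SE 0.26, edgeR adjusted p 0.267) for day 5 against vehicle and -0.08 (SE 0.26, edgeR adjusted p 0.896) for day 10 against day 5, so no comparison passed the threshold of 0.05. Gm48488 held 15.8, 16.9 and 15.4 times the counts of Gas1 at day 10, day 5 and in vehicle, so the ratio varied less between the groups than that of the other pairs. The ratios rest on unequal counts, in the same order 167, 227 and 180 for Gas1, 37, 49 and 53 for Fn1 and 14, 21 and 31 for Lama2. Whether their spread differs beyond counting error was not tested.

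**Figure D3:**
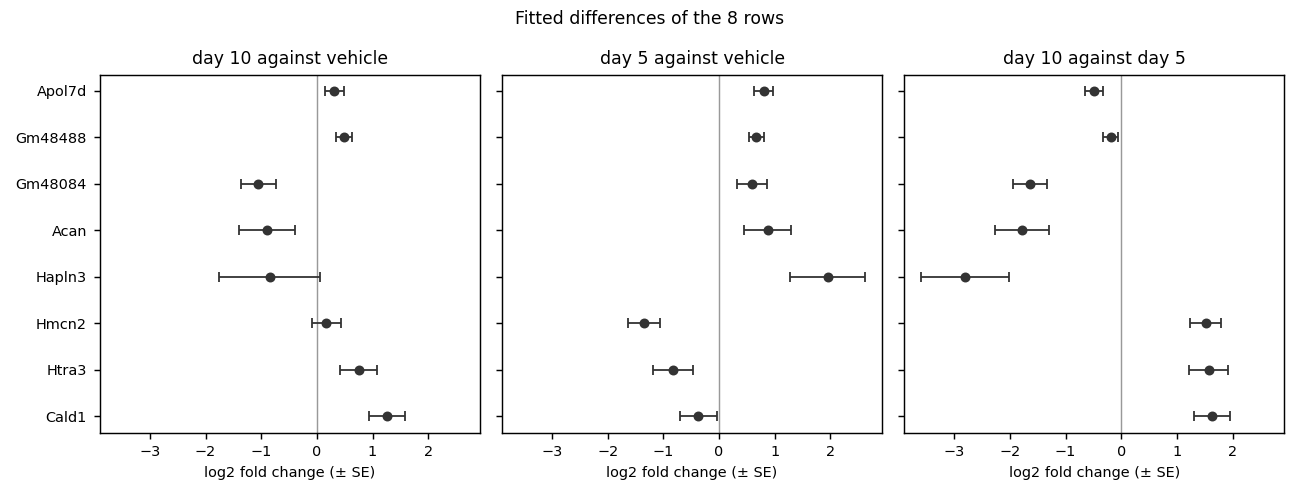
Fitted log2 fold change of each row (points) with its SE (bars) in 3 panels, each exposed group over vehicle and then day 10 over day 5. The comparisons share libraries, and in the last of them Gm48084, Acan and Hapln3 are at -1.64, -1.78 and -2.80 while Hmcn2, Htra3 and Cald1 are at 1.52, 1.57 and 1.63.

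A row was called where the edgeR quasi-likelihood test gave a p under 0.05 after Benjamini-Hochberg adjustment over all 13181 rows. Between day 10 and vehicle 3 of the 8 rows were called, Gm48488 and Cald1 higher and Gm48084 lower, and 7.08% of all tested rows were called (3.93% higher and 3.15% lower). In that comparison 2 of the 8 rows, Gm48488 and Htra3, had groups without overlap, both higher, as had 9.98% of tested rows (4.98% higher and 5.01% lower). Between day 5 and vehicle 3 were called, Apol7d and Gm48488 higher and Hmcn2 lower, beside 0.660% of tested rows (0.410% higher and 0.250% lower). Groups did not overlap for 5 rows (Apol7d, Gm48488, Acan and Hapln3 higher, Hmcn2 lower), beside 11.7% of tested rows (5.86% higher and 5.80% lower). For the exposed groups set against each other, 6 were called, Hmcn2, Htra3 and Cald1 higher and Gm48084, Acan and Hapln3 lower, beside 10.1% of tested rows (4.66% higher and 5.49% lower). The same 6 had groups without overlap, beside 12.5% (5.71% higher and 6.76% lower). Nothing is read from these counts, since the same differences chose the rows. Hapln3 also reached 10 counts or more only in the day 5 libraries, so it passed the filter on low counts through the group where it is high. The median log2 fold change of the 8 was 0.24 between day 10 and vehicle, 0.63 between day 5 and vehicle and -0.34 between the exposed groups, beside -0.0125, -0.0266 and 0.0148 over all tested rows.

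These counts depended on single libraries. Without day 10 library 2, 3 or 5, edgeR called 0 of the 8 rows between day 10 and vehicle (5, 4 and 3 at an unadjusted p under 0.05), and without day 10 library 1 it called 4. Leaving out vehicle library 2, 4, 5 or 6, or day 5 library 5, gave 1 call. Between day 5 and vehicle it called 0 without vehicle library 2 or 6 or day 5 library 5 or 6 (4, 5, 5 and 5 at an unadjusted p under 0.05), and 1 without vehicle library 4 or day 5 library 8. For day 10 over day 5 it called 4 without day 5 library 5 or 7 or day 10 library 3 or 5. With the share of CT010467.2 in the model, 0 of 8 were called between day 10 and vehicle (0 at an unadjusted p under 0.05), 4 between day 5 and vehicle and 0 between day 10 and day 5 (6 at an unadjusted p under 0.05). Without day 10 libraries 2, 3 and 5 together the counts were 0 (2 at an unadjusted p under 0.05), 4 and 0 (4 at an unadjusted p under 0.05), and without day 5 libraries 6 and 8 together they were 1, 0 (4 at an unadjusted p under 0.05) and 3.

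Per kb of annotated exon the rows differed widely in level. Apol7d averaged 121.9 ± 27.5 CPM per kb at day 10, 171.8 ± 33.2 at day 5 and 98.9 ± 22.9 in vehicle (mean ± SD, n = 4 libraries here and below), and Gm48488 73.5 ± 9.73 at day 10, 83.7 ± 12.7 at day 5 and 52.55 ± 8.72 in vehicle. Gm48084 followed with 10.2 ± 3.99 CPM per kb at day 10, 32.2 ± 4.19 at day 5 and 21.7 ± 7.83 in vehicle. The 5 coding rows were all below 4 CPM per kb, so the 3 opposite-strand rows lay above the coding rows in each group. Htra3 averaged 3.76 ± 0.768 CPM per kb at day 10, 1.25 ± 0.589 at day 5 and 2.22 ± 0.467 in vehicle, and Cald1 2.75 ± 1.25 at day 10, 0.874 ± 0.109 at day 5 and 1.14 ± 0.433 in vehicle. Hmcn2 averaged 2.31 ± 0.719 CPM per kb at day 10, 0.801 ± 0.2125 at day 5 and 2.06 ± 0.579 in vehicle. Acan averaged 0.400 ± 0.252 CPM per kb at day 10, 1.34 ± 0.226 at day 5 and 0.708 ± 0.323 in vehicle, and Hapln3 0.256 ± 0.5125 at day 10, 2.10 ± 0.438 at day 5 and 0.527 ± 0.368 in vehicle. At day 10 and in vehicle the spreads of Acan and Hapln3 overlapped, and at day 5 Hapln3 was the higher of the pair per kb.

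Correlations of the log2 levels over the 12 libraries are a description, since the rows of a library share its depth and composition. Htra3 and Cald1 had a Pearson r of 0.73 (Spearman rho 0.83), Hmcn2 and Cald1 0.68 (rho 0.62) and Hmcn2 and Htra3 0.61 (rho 0.69). Gm48084 and Hapln3 had an r of 0.74 (rho 0.72), while the neighbours Acan and Hapln3 had 0.45 (rho 0.58) and Gm48084 and Acan 0.49 (rho 0.52). Between Acan, Hapln3 or Gm48084 and Hmcn2, Htra3 or Cald1 the values were negative, from -0.34 (rho -0.36) for Acan and Cald1 to -0.85 (rho -0.81) for Gm48084 and Cald1. Apol7d had an r of 0.78 with Gm48488 (rho 0.68), 0.62 with Gm48084 (rho 0.67), 0.52 with Hapln3 (rho 0.64) and -0.67 with Hmcn2 (rho -0.71). Gm48488 had an r between -0.38 and 0.20 with each of the other 6 rows.

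For each row the 2 tested rows outside the 8 with the highest Pearson r over the 12 libraries were looked up. For the 3 opposite-strand rows the 5 named here also lie opposite a coding gene. They were Gm9754 (opposite Fbxw8, r 0.975) and Plppr3 (opposite Ptbp1, 0.955) for Apol7d, Gm13008 (opposite Eloa, 0.98) and Mcm9 (opposite Asf1a, 0.96) for Gm48084, and Gm26616 (opposite Ppp1r15b, 0.966) for Gm48488. For the coding rows 1 of the 10 lay opposite a coding gene. The share of all tested rows that lie opposite a coding gene was not taken, so nothing is read from these counts. Nearest to Hmcn2 were Zfp518b (0.919) and Zfp609 (0.914), to Htra3 the pseudogene Gm16167 (0.934) and Gm12970 (0.912), and to Cald1 Acap3 (0.949) and Rrbp1 (0.941). Nearest to Acan were the mucosal chemokine gene Ccl28 (0.871) and the pseudogene Gm11935 (0.847), and to Hapln3 Gadl1 (0.95) and Spata1 (opposite Ctbs, 0.934). Spearman rho for these pairs ran from 0.79 to 0.965.

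The other genes of matrix biology were followed in 14 lists of 237 genes, grouped by role and without the 8 rows. Of the 237 own rows 138 were tested, and of 70 rows whose exons overlap a listed gene by at least 50 bases on the other strand 59 were tested. The lists were drawn up with earlier results of these data known, so their counts are set beside those of all rows and nothing is called particular to them. By own rows, 2 of 138 were called between day 10 and vehicle (1.45%, 1 higher and 1 lower), 1 between day 5 and vehicle (0.725%, lower) and 14 between day 10 and day 5 (10.1%, 10 higher and 4 lower), beside 7.08%, 0.660% and 10.1% of all tested rows. The medians were 0.0732, 0.0135 and 0.0387, beside those of all tested rows given above.

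The own rows of the proteases moved in both directions between day 10 and day 5. In the own-row results, a gene said to rise or fall stands for the row of that name. Whether an own row reports its gene was not tested, since the strand setting of the counting is not given. Mmp9, a gelatinase that neutrophils also carry, rose to 245 ± 38.0 CPM at day 10, against 135 ± 22.4 at day 5 (log2 fold change 0.86, SE 0.15, edgeR adjusted p 0.00222). Adam12, a membrane metalloprotease of mesenchymal cells, rose to 320.0 ± 27.3 CPM at day 10, against 211 ± 45.0 at day 5 (0.60, SE 0.14, adjusted p 0.00828). Mmp19 fell to 62.4 ± 16.5 CPM at day 10, against 96.0 ± 11 at day 5 (-0.61, SE 0.18, adjusted p 0.0276). These were the 3 calls among 14 tested proteases, a list that does not hold Htra3. Adam12 was also the single own-row call between day 5 and vehicle, at 211 ± 45.0 CPM at day 5 and 350.0 ± 18 in vehicle (-0.73, SE 0.14, adjusted p 0.0198). Mmp9 was also higher at day 10 than in vehicle (245 ± 38.0 CPM at day 10 and 161 ± 26.1 in vehicle, 0.61, SE 0.15, adjusted p 0.0189), although those groups overlapped. The protease inhibitors gave 0 calls among 5 tested own rows in every comparison (0, 2 and 3 at an unadjusted p under 0.05 for day 10 over vehicle, day 5 over vehicle and day 10 over day 5).

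In the family of aggrecan and the link proteins, 2 of 6 tested own rows were called lower at day 10 than at day 5, beside 5.49% of all tested rows. The family did not fall as a whole, since 3 of the 6 were above 0 and 3 below, with a median of 0.162. Vcan, the versican of loose connective tissue and a relative of aggrecan, had 3.81 ± 1.23 CPM at day 10 and 10.3 ± 2.11 at day 5 (log2 fold change -1.44, SE 0.39, edgeR adjusted p 0.0216). Has3, a hyaluronan synthase, had 510.0 ± 51.1 CPM at day 10 and 670.0 ± 45.0 at day 5 (-0.39, SE 0.12, adjusted p 0.0363). All 4 day 10 libraries lay below all 4 day 5 libraries for both, as for Acan and Hapln3. By own rows the other cartilage matrix genes did not share a call, with 0 of 6 tested own rows in any comparison (0, 1 and 1 at an unadjusted p under 0.05 for day 10 over vehicle, day 5 over vehicle and day 10 over day 5) and a median of 0.323 for day 10 against day 5. Of these own rows 5 were above 0 and 1 below. The rows opposite cartilage matrix genes ran the other way in that comparison, with all 4 tested below 0 and a median of -0.402. Of these 4 rows 2 were called lower, and they are named further below. Chad, which encodes chondroadherin of cartilage, had 68.2 ± 13.3 CPM at day 10 and 53.5 ± 9.95 at day 5 (0.34, SE 0.19, adjusted p 0.279), and Comp 12.1 ± 2.35 CPM at day 10 and 8.30 ± 4.48 at day 5 (0.52, SE 0.38, adjusted p 0.435). Both were picked after their values were seen.

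Collagens and basement membrane genes gave 0 calls by own rows in the 3 comparisons, among 7 fibrillar collagens, 10 other collagens and 15 basement membrane genes. At an unadjusted p under 0.05 the fibrillar collagens had 1, 1 and 0, the other collagens 0, 0 and 1, and the basement membrane genes 1, 2 and 0 for day 10 over vehicle, day 5 over vehicle and day 10 over day 5. Hmcn1, the paralog of Hmcn2, had 9.55 ± 3.02 CPM at day 10, 14.2 ± 1.35 at day 5 and 14.6 ± 3.08 in vehicle. Its log2 fold change of -0.59 (SE 0.31, edgeR adjusted p 0.245) for day 10 against day 5 had the other sign from that of Hmcn2 and missed the threshold, and Hmcn1 was picked after its values were seen. The row opposite Hmcn1, Gm20631, was higher in level, at 88.9 ± 7.99 CPM at day 10 and 77.6 ± 21.9 at day 5. Its log2 fold change of 0.20 (SE 0.18, edgeR adjusted p 0.540) had the sign of Hmcn2 and was not called either.

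Single genes of other lists were called between day 10 and day 5. The microfibril gene Mfap2 rose to 120.0 ± 32.5 CPM at day 10, against 59.7 ± 12.3 at day 5 (log2 fold change 1.01, SE 0.18, edgeR adjusted p 0.00264). Transglutaminase 2, which crosslinks matrix proteins, is encoded by Tgm2, and procollagen processing is enhanced by the product of Pcolce. Both Tgm2 (0.98, SE 0.26, edgeR adjusted p 0.0179) and Pcolce (0.50, SE 0.14, edgeR adjusted p 0.0271) rose, as 2 of 9 tested genes of collagen processing. Among 14 matrix receptors, the hemidesmosome integrin Itgb4 (0.85, SE 0.18, adjusted p 0.00542) and the collagen receptor subunit Itga11 (0.58, SE 0.16, adjusted p 0.0213) rose, and the widely shared subunit Itgb1 fell (-0.85, SE 0.27, adjusted p 0.0457).

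Thbs1, a matricellular thrombospondin, rose as 1 of 9 of its list (0.41, SE 0.13, edgeR adjusted p 0.0447), Smad3, the transducer of TGF-beta signals, as 1 of 11 (0.74, SE 0.15, adjusted p 0.00464) and the non-muscle myosin Myh10 as 1 of 16 contractile genes (0.63, SE 0.16, adjusted p 0.0112). The receptor Tgfbr2 was lower at day 10 than in vehicle (67.0 ± 10.4 CPM at day 10 and 97.7 ± 7.94 in vehicle, -0.54, SE 0.16, adjusted p 0.0367), the other own-row call of that comparison beside Mmp9. Hedgehog signalling gave 0 calls among 6 tested genes, Gas1 included (0, 2 and 1 at an unadjusted p under 0.05 for day 10 over vehicle, day 5 over vehicle and day 10 over day 5).

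The own-row counts also moved with single libraries. Between day 10 and day 5 the 14 calls were 9, 5, 9 and 9 without day 5 library 8, 5, 7 and 6 and 8, 9 and 9 without day 10 library 3, 2 and 5. Smad3, Mfap2, Adam12, Mmp9 and Itgb4 were called in each of the 12 fits that left out 1 library, and the other 9 were lost in at least 1. Over all alternatives the lowest fold changes of these 5 were 0.29 for Smad3, 0.32 for Mfap2, 0.42 for Adam12, 0.50 for Mmp9 and 0.22 for Itgb4 on the log2 scale. Between day 10 and vehicle edgeR called 0 without vehicle library 2, 4 or 6 or day 10 library 2 or 5 (20, 16, 18, 20 and 14 at an unadjusted p under 0.05), 1 without day 5 library 5 and 16 without day 10 library 1. Between day 5 and vehicle it called 0 without vehicle library 2 or 6 or day 5 library 5 or 6 (17, 27, 18 and 24 at an unadjusted p under 0.05) and 6 without day 10 library 1. With the share of CT010467.2 in the model, 0 were called between day 10 and day 5 (20 at an unadjusted p under 0.05) and 0 between day 10 and vehicle (4 at an unadjusted p under 0.05).

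Of the 59 rows opposite listed genes, 11 were called between day 10 and vehicle (18.6%, 9 higher and 2 lower), 0 between day 5 and vehicle and 15 between day 10 and day 5 (25.4%, 3 higher and 12 lower), beside 7.08%, 0.660% and 10.1% of all tested rows. For day 5 against vehicle 25 had an unadjusted p under 0.05 in edgeR, beside 16.3% of all tested rows. Of the 59, 53 were positive, beside 47.4% of all tested rows, with a median of 0.305, and DESeq2 called 12 and limma-voom 8. The medians for day 10 against vehicle and day 10 against day 5 were 0.114 and -0.189. Whether a row opposite a gene reports that gene was not tested. The shares over all rows opposite coding genes of any role were not taken. Whether these values are particular to matrix genes was therefore not tested.

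Lower at day 10 than at day 5 were the rows opposite Timp3, a matrix-bound protease inhibitor, and Vcl, which joins actin to cell adhesions. Syn3, opposite Timp3, had 2100.0 ± 1290.0 CPM at day 10 and 4560.0 ± 605 at day 5 (log2 fold change -1.12, SE 0.24, edgeR adjusted p 0.00508), with wide spread at day 10. The own row of Timp3, picked after its values were seen, had 309 ± 40.7 CPM at day 10 and 255 ± 19.1 at day 5 (0.28, SE 0.12, edgeR adjusted p 0.156). Ap3m1, opposite Vcl, had 907 ± 353 CPM at day 10 and 1910.0 ± 110.0 at day 5 (-1.07, SE 0.17, adjusted p 0.00115). Gm48529, opposite the smooth muscle gene Tagln, had 1910.0 ± 183 CPM at day 10 and 2960.0 ± 290.0 at day 5 (-0.64, SE 0.13, adjusted p 0.00454), while the own row of Tagln, picked after its values were seen, had 122 ± 24.3 CPM at day 10 and 130 ± 9.39 at day 5 (-0.09, SE 0.14, adjusted p 0.750). Rows opposite the small leucine-rich cartilage genes Epyc (Gm10754, -1.92, SE 0.55, adjusted p 0.0274) and Prelp (Gm15851, -0.43, SE 0.13, adjusted p 0.0372) were lower too, as were those opposite Htra4, a paralog of Htra3 (Gm16933, -1.05, SE 0.27, adjusted p 0.0156), and the collagen receptor Ddr2 (3110045C21Rik, -1.35, SE 0.44, adjusted p 0.0490). The row opposite Tgm2 was lower (Gm20412, -0.52, SE 0.16, adjusted p 0.0346), the other direction from Tgm2's own row.

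Further rows lower at day 10 than at day 5 lay opposite the basement membrane nidogens Nid1 (Gm48682, log2 fold change -0.58, SE 0.15, edgeR adjusted p 0.0134) and Nid2 (Rtraf, -0.79, SE 0.25, adjusted p 0.0490), the growth factor Tgfb3 (Gm48008, -0.63, SE 0.14, adjusted p 0.00661) and the type V collagen gene Col5a1 (Gm13372, -0.73, SE 0.21, adjusted p 0.0291). The 3 rows that were higher lay opposite the laminin gene Lamc3 (Gm13441, 0.85, SE 0.25, adjusted p 0.0310), the latent TGF-beta binding gene Ltbp2 (D030025P21Rik, 0.72, SE 0.18, adjusted p 0.0113) and the myosin kinase gene Mylk (E130310I04Rik, 0.57, SE 0.18, adjusted p 0.0440).

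The same 3 were higher at day 10 than in vehicle, Gm13441 (0.84, SE 0.25, edgeR adjusted p 0.0411), D030025P21Rik (0.80, SE 0.18, adjusted p 0.0112) and E130310I04Rik (0.58, SE 0.18, adjusted p 0.0498), and these comparisons share the day 10 libraries. Also higher than in vehicle were rows opposite Eln, the elastin gene (Gm30003, 0.86, SE 0.25, adjusted p 0.0398), Col5a1 (2810430I11Rik, 0.63, SE 0.16, adjusted p 0.0233), Col4a3 (C430014B12Rik, 0.56, SE 0.17, adjusted p 0.0412), the protease gene Adamts9 (Gm15737, 0.68, SE 0.14, adjusted p 0.00922), the integrin gene Itga8 (E030013I19Rik, 0.69, SE 0.20, adjusted p 0.0379) and the BMP receptor gene Bmpr1a (Gm17110, 0.69, SE 0.16, adjusted p 0.0148). Ap3m1 (-0.58, SE 0.17, adjusted p 0.0421) and Syn3 (-0.87, SE 0.24, adjusted p 0.0273) were lower than in vehicle. Some genes had a second opposite row that was not called, picked here after its values were seen. A730049H05Rik, opposite Adamts9, was at 0.00 (SE 0.13, edgeR adjusted p 0.990) for day 10 against vehicle, and Gm21691, opposite Mylk, at 0.13 (SE 0.17, edgeR adjusted p 0.706) for that comparison and 0.00 (SE 0.17, edgeR adjusted p 0.996) for day 10 against day 5. For Col5a1, Gm13372 was at -0.02 (SE 0.21, edgeR adjusted p 0.974) against vehicle and 2810430I11Rik at -0.0 (SE 0.16, edgeR adjusted p 0.992) against day 5. Also against day 5, Rprd1b, opposite Tgm2, was at -0.13 (SE 0.16, edgeR adjusted p 0.680), Gm37804, opposite Tgfb3, at -0.44 (SE 0.18, edgeR adjusted p 0.132) and Pcsk7, opposite Tagln, at 0.35 (SE 0.17, edgeR adjusted p 0.221). The sign of the values against vehicle for Gm30003, D030025P21Rik, E030013I19Rik, Ap3m1 and Syn3, and against day 5 for D030025P21Rik, changed in at least 1 alternative.

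The opposite-row counts depended on libraries as well. The 15 calls of day 10 over day 5 were 6, 9 and 9 without day 5 library 5, 7 and 6, and 25, 5, 6 and 5 without day 10 library 1, 2, 3 and 5, and only Gm48008, Gm48529, Ap3m1 and Syn3 were called in all 12 fits that left out 1 library. Between day 10 and vehicle the 11 calls were 2, 4 and 4 without vehicle library 2, 4 and 6, 6 and 6 without day 5 library 5 and 7, and 22, 3, 4 and 1 without day 10 library 1, 2, 3 and 5, and Gm15737 alone was called in all 12. Between day 5 and vehicle edgeR called 5 without vehicle library 5, 1 without day 5 library 8 and 13 without day 10 library 1. With the share of CT010467.2 in the model it called 0 between day 10 and vehicle (2 at an unadjusted p under 0.05) and 0 between day 10 and day 5 (13 at an unadjusted p under 0.05).

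**Figure D4:**
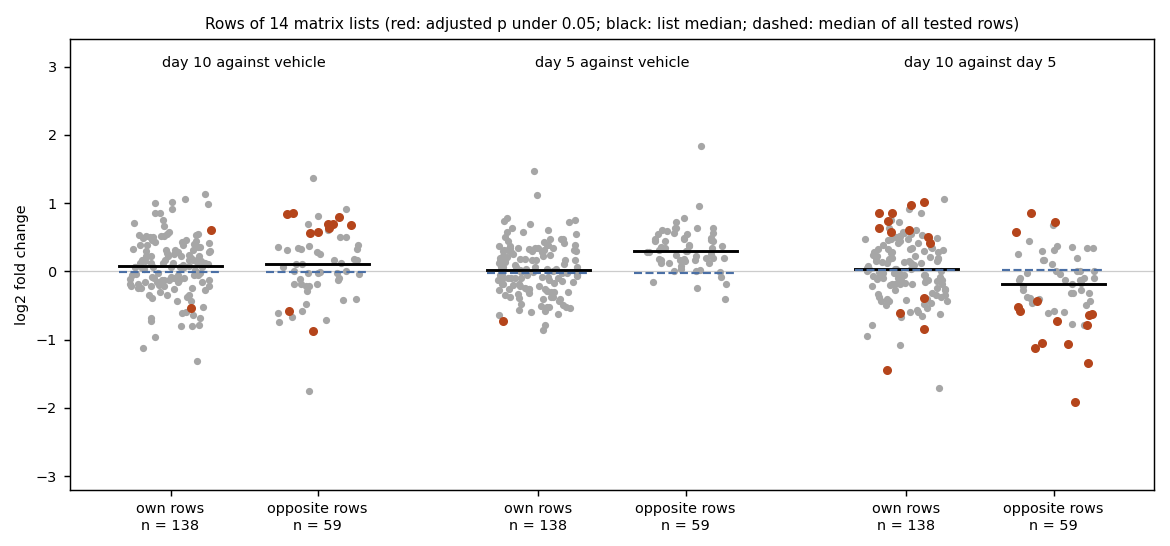
Log2 fold change of each tested own row (138) and opposite row (59) of the 14 matrix lists in the 3 comparisons, with called rows in red, the median of the rows as a black line and the median of all tested rows dashed. In day 5 against vehicle the opposite rows lie mostly above 0 with 0 called, and in day 10 against day 5 their median is -0.189. Rows opposite coding genes outside the lists are not shown apart.

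Marker genes of the cells that make matrix were read by their own rows beside the 8 rows. The 9 chondrocyte markers summed to 108 to 144 CPM at day 10, 102 to 125 at day 5 and 126 to 139 in vehicle. Of them Matn1 had 0 to 2 counts per library and Col2a1, the collagen that defines cartilage, 0 to 9, while Chad had 85 to 256, Sox9 21 to 91 and Cnmd 27 to 88. The 1 row opposite them had 55.0 to 68.7 CPM at day 10, 50.9 to 78.1 at day 5 and 50.3 to 91.5 in vehicle. With Col2a1 and Matn1 this low, the chondrocyte sum cannot show whether cartilage RNA changed. The part of cartilage in the values of Acan and Hapln3 was not tested. The 9 fibroblast markers summed to 113 to 299 CPM at day 10, 245 to 470.0 at day 5 and 196 to 409 in vehicle, with Lum at 0 to 2, Dpt at 0 to 5, Thy1 at 0 to 6 and Dcn at 0 to 10 counts, while Col1a1 had 76 to 647, Col1a2 38 to 206, Pi16 33 to 93 and Pdgfra 13 to 52. The 3 rows opposite them summed to 12.6 to 41.1 CPM at day 10, 19.1 to 30.8 at day 5 and 21.6 to 28 in vehicle. The 8 osteoblast markers summed to 73.7 to 98.5 CPM at day 10, 81.1 to 115 at day 5 and 69.0 to 99.7 in vehicle, and the 1 row opposite them to 142 to 176 CPM at day 10, 106 to 142 at day 5 and 102 to 129 in vehicle.

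The 8 smooth muscle and pericyte markers summed to 173 to 250 CPM at day 10, 136 to 160.0 at day 5 and 179 to 220.0 in vehicle, by own rows, so that the day 5 sum lay below both other groups. Notch3 had the most counts, 127 to 423 per library, beside 12 to 45 for Acta2, 15 to 50 for Myh11 and 43 to 91 for Cnn1. For day 5 against vehicle the log2 fold change was -0.14 (SE 0.33) for Acta2, -0.08 (SE 0.32) for Myh11 and -0.33 (SE 0.21) for Cnn1. None of them was called, and they were picked after their values were seen. Which markers account for the lower day 5 sum was not tested. The 2 rows opposite the list, opposite Notch3 (362 to 577 counts) and Des (0 to 5 counts), ran otherwise, with 189 to 274 CPM at day 10, 202 to 252 at day 5 and 153 to 218 in vehicle. The 8 endothelial markers summed to 120.0 to 167 CPM at day 10, 93.0 to 118 at day 5 and 104 to 166 in vehicle by own rows. Nos3 had 164 to 493 counts per library, while Tek had 6 to 28 and Pecam1 0 to 22. The 2 rows opposite endothelial markers both lie opposite Nos3, so they speak for that gene alone. In them every exposed library lay above vehicle, with 91.1 to 198 CPM at day 10, 87.4 to 96.8 at day 5 and 70.5 to 81.9 in vehicle. The 11 skeletal muscle markers summed to 239 to 487 CPM at day 10, 262 to 391 at day 5 and 325 to 335 in vehicle by own rows. The part of these markers in the values of Cald1, Hmcn2 and Htra3 was not tested.

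The 8 epithelial markers, which stand for the labelled tissue, summed to 75.1 to 145 CPM at day 10, 72.6 to 123 at day 5 and 59.4 to 116 in vehicle by own rows, and to 635 to 972 CPM at day 10, 760.0 to 1510.0 at day 5 and 579 to 750.0 in vehicle in the 3 rows opposite them. The 8 olfactory neuron markers summed to 252 to 282 CPM at day 10, 255 to 322 at day 5 and 234 to 296 in vehicle by own rows, and to 8760.0 to 10400.0 CPM at day 10, 8620.0 to 11500.0 at day 5 and 8700.0 to 11900.0 in vehicle in the 3 rows opposite them. The 8 neutrophil and macrophage markers summed to 222 to 280.0 CPM at day 10, 214 to 231 at day 5 and 185 to 228 in vehicle by own rows, with Csf1r at 330 to 602 counts and S100a8 and Ly6g at 0 in every library.

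**Figure D5:**
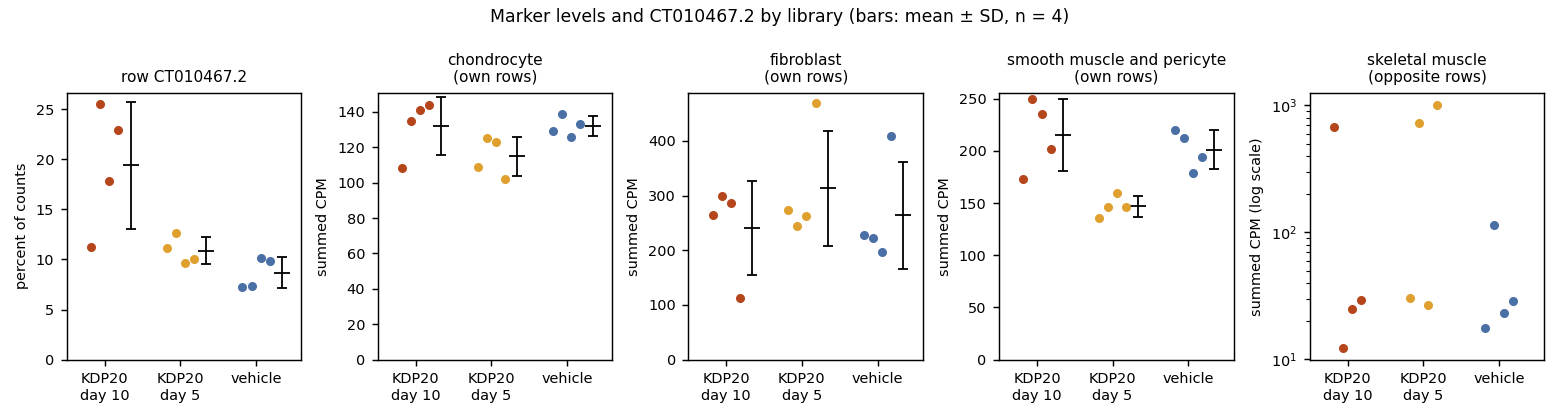
Share of counts in the row CT010467.2 and summed CPM of chondrocyte, fibroblast and smooth muscle markers (own rows) and of rows opposite skeletal muscle markers in each library, for KDP20 day 10, KDP20 day 5 and vehicle, with mean and SD of 4 libraries where drawn and a log axis for the skeletal muscle rows. By own rows the sum of smooth muscle markers, in which Notch3 has the most counts, is lowest at day 5. The sum of chondrocyte markers is 102 to 125 CPM at day 5, and day 10 libraries 2, 3 and 5 have the largest CT010467.2 shares.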

How the data were processed

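RNA was measured in 12 nasal libraries, 4 each of KDP20 day 10, KDP20 day 5 and vehicle. The authors deposited raw read counts per gene for all libraries in 1 table. Per the submitters' processing notes FastQC, Trim Galore, STAR, HTSeq and build mm10 were used; the sources used here give no versions, annotation or strand setting. Rows were kept by edgeR's filterByExpr (13181 of 55487 rows, 98.3% of counts), scaled by TMM and tested with edgeR 4.0.16 (R 4.3.3) by a quasi-likelihood F test on group over all 12 libraries, with Benjamini-Hochberg adjustment over all tested rows and a threshold of 0.05. Opposite rows share at least 50 exonic bases with a gene on the other strand in GENCODE M21. DESeq2 1.42.0, limma 3.58.1, other scalings, filters, covariates and left-out libraries were tried as alternatives. Code was tested on simulated data. The rows and lists were chosen with earlier results of these data known. Named were the 8 rows and their partners, every list call up to the 4 smallest p per list, comparison and kind of row, and the 2 rows of highest r per row, of which 1 is not reported here. Libraries of 1658420 to 3227138 counts limit precision for low rows, and limits at 0 take 3 counts and cover counting error only.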

Additional observations from a re-analysis of the deposited data

Results flagged for a closer look

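In 54 groups of 4 libraries, 5 had a highest library whose gap to the next was above Dixon's 95% critical value for the group's range, where chance gives about 1 in 20 groups. For Hapln3 at day 10 it was library 1, at 3.60 CPM, the other 3 being at 0. For fibroblast markers by own rows it was day 5 library 8, at 470.0 CPM beside 245 to 274, and vehicle library 6, at 409 CPM beside 196 to 227. For rows opposite skeletal muscle genes it was day 10 library 1, at 674 CPM beside 12.4 to 29.1, and vehicle library 4, at 115 CPM beside 17.8 to 29.0.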

How the results depend on the processing

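Of 568 values of the 8 rows under alternatives, 533 moved by less than the spread between replicates and 35 by more. The sign changed only for Hmcn2 and Hapln3 in day 10 against vehicle, where neither was called. Counts called are given in the order all tested rows, own list rows, opposite list rows. The causes of the shifts were not tested. Day 10 against vehicle (933, 2 and 11) gave 423, 1 and 3 with only the 8 libraries compared, 412, 1 and 7 with GC correction, and 0, 0 and 0 both with the share of CT010467.2 as a covariate (500, 4 and 2 at an unadjusted p under 0.05) and without day 10 libraries 2, 3 and 5 together (912, 10 and 8). Own rows there were 5 with no filter, 5 at 10 CPM or more, 9 by DESeq2, 4 by limma-voom and 1 without day 5 libraries 6 and 8. Day 5 against vehicle (87, 1 and 0) gave 278, 1 and 7 with no filter, 135, 1 and 1 at 10 CPM or more, 514, 7 and 12 by DESeq2, 284, 1 and 8 by limma-voom, 656, 7 and 13 with only the 8 libraries compared, 370, 2 and 11 with the covariate, 589, 7 and 13 without day 10 libraries 2, 3 and 5, and 6, 0 and 0 without day 5 libraries 6 and 8 (18 own and 17 opposite rows at an unadjusted p under 0.05). Opposite rows there were 2 with upper-quartile scaling and 3 with GC correction. Day 10 against day 5 (1337, 14 and 15) gave 2, 0 and 0 with the covariate (20 own and 13 opposite rows at an unadjusted p under 0.05), 0, 0 and 0 without day 10 libraries 2, 3 and 5 (1142, 23 and 7), and 243, 2 and 5 without day 5 libraries 6 and 8. Own rows there were 9 with GC correction. Upper-quartile scaling gave 485 higher and 466 lower between day 10 and vehicle, against 518 and 415, and GC correction gave 329 and 83.

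Leaving out 1 library at a time gave 95 to 2684 rows, 0 to 16 own and 1 to 22 opposite for day 10 against vehicle, 5 to 569, 0 to 6 and 0 to 13 for day 5 against vehicle, and 623 to 2689, 5 to 20 and 5 to 25 for day 10 against day 5. The shared replicate numbers gave no clear sign of pairing. Deviations of the 5 same-numbered pairs correlated at -0.0894 to 0.1235, beside -0.118 to 0.1129 for 43 other pairs. With only 5 such pairs a weak pairing could be missed. With replicate as a block, calls numbered 1701, 10 and 15 for day 10 against vehicle, 33, 1 and 2 for day 5 against vehicle, and 958, 6 and 12 for day 10 against day 5. The block fit has 2 residual degrees of freedom. Hapln3, Acan and Htra3 rest on at most 34 counts per library, which limits what can be seen.

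The alternatives without day 10 libraries 2, 3 and 5 and without day 5 libraries 6 and 8 were chosen after seeing the data, and the remaining day 10 library is then assumed to vary like the others.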
